A study of Mus musculus with 3 samples.

Results

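Arterial endothelial cells are the cells that line the arteries and arterioles, the vessels that bring blood into the tissue. They were described here in the hippocampus of aged mice, where 1287 of 4061 endothelial cells met the rule for them, out of 14759 barcodes in all. Endothelial cells were barcodes with at least 2000 UMIs (unique molecular identifiers, each standing for 1 RNA molecule counted once), at most 20% mitochondrial UMIs, at least 3 of the 6 genes Cldn5, Flt1, Pecam1, Itm2a, Cdh5 and Ly6c1 detected, and at most 1 of the 5 genes Slc1a2, Aqp4, Cx3cr1, Vtn and Ccdc153. A cell was arterial if at least 2 of 6 arterial genes (Gkn3, Sema3g, Bmx, Vegfc, Egfl8 and Stmn2) were detected and more of these than of 6 venous genes (Slc38a5, Ackr1, Lrg1, Il1r1, Vwf and Cyp2e1). The other 2774 endothelial cells were the first comparison group. The second was the 895 venous cells among them, chosen by the mirrored rule (at least 2 venous genes, and more venous than arterial genes). A further 1819 cells had fewer than 2 genes of either set ("cells of neither set") and 60 had equal numbers. The rule reads RNA counts of the same cells, so its 23 genes are given below as levels and were not tested.

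All cells came from wild-type C57BL/6 mice labelled 2 years old, though the title of the library used as replicate 3 gives 25 months, with no transgene, treatment or other group, so the groups compared are cell classes within the same animals. The dissected tissue had been dissociated with papain, myelin removed with beads, and RNA captured with the 10x Chromium 3′ chemistry in 3 libraries, treated as replicates 1, 2 and 3. The series text speaks of 6 hippocampi, but which animals entered which library is not stated. The p-values below therefore measure the spread between these libraries, which may be technical.

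As background, arterial identity in endothelial cells is set up during development by Vegf and Notch signalling. Delta-like and Jagged ligands on one cell cleave and release the intracellular part of a Notch receptor on its neighbour, which acts with Rbpj on targets of the Hey and Hes families. The membrane ligand ephrin-B2 (Efnb2) marks the arterial side, and the nuclear receptor COUP-TFII (Nr2f2) and the receptor Ephb4 the venous side. Arteries carry elastic fibres and a smooth muscle coat, while exchange of nutrients across the blood-brain barrier takes place along capillaries and small veins.

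Arterial cells numbered 731, 97 and 459 in replicates 1, 2 and 3. They made up 33.4% (exact Clopper-Pearson 95% interval 31.4 to 35.4), 27.2% (22.7 to 32.2) and 30.3% (28.0 to 32.7) of the endothelial cells, a mean of 30.3% ± 3.07 (SD, n = 3). The intervals, which cover counting error only, overlapped between all 3 libraries. Applied to cells thinned to 2000 UMIs each, the same rule gave 18.4% ± 3.27 (SD, n = 3). Venous cells made up 21.5% ± 1.31 and cells of neither set 46.6% ± 4.02 (SD, n = 3).

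The arterial cells carried 7383951, 1273128 and 4200611 UMIs in replicates 1, 2 and 3. Their median UMI count was 8862, 11009 and 8087, against 7049.5, 7950 and 5555 in the other endothelial cells, 11114, 12614 and 8704 in the venous cells and 5689, 6529 and 4516 in the cells of neither set. Arterial and venous cells were thus deeper than the cells of neither set in every library. The rule counts detected genes, and the part of depth in membership was not tested. Scrublet marked 9, 1 and 1 arterial cells as doublets. Between any pair of libraries at most 12 barcodes were shared. Replicate 2, with 1062 barcodes, stood apart in several genes, which are named where they occur.

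RNA of other cell types was measured with marker lists. The 5 endothelial markers outside the rule (Tie1, Emcn, Erg, Esam and Egfl7) summed to 2609 to 2708 CPM (counts per 1000000 UMIs of the class and library) in the arterial cells and 2594 to 2719 CPM in the other endothelial cells. Microglia markers summed to 237, 691 and 290.4 CPM in the arterial cells, 570, 2153 and 935 CPM in the other cells, and 264, 489 and 293 CPM in the venous cells. Against the other endothelial cells, 8 of 8 microglia markers were lower in the test described below (8.96% of all genes tested), and against the venous cells 1 of 8 (8.52% of all genes tested). Smooth muscle markers summed to 166, 161 and 188 CPM in the arterial cells and 81.8, 142 and 91.9 CPM in the other cells. At least 2 of Acta2, Tagln, Myh11 and Myl9 were detected in 13, 0 and 7 arterial cells and 5, 3 and 8 other cells. Haemoglobin and other red cell RNA summed to 10591, 22564 and 15799 CPM in the arterial cells, 10291, 20385 and 19897 CPM in the other cells and 6313, 7924 and 18830.3 CPM in the venous cells. Of 5 red cell markers 3 were called higher in arterial than in venous cells (11.5% of all genes tested), with a median log2 difference of 0.59, and their part in that comparison was not tested. Neuron markers summed to at most 6.50 CPM in the arterial cells.

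Gkn3, the first of the 6 arterial genes of the rule, encodes a gastrokine-like secreted protein and is used as a marker of brain arteries. It stood at 1061, 229 and 1093 CPM in the arterial cells of replicates 1, 2 and 3, 13.7, 1.37 and 14.8 CPM in the cells of neither set and 5.63, 0.975 and 7.60 CPM in the venous cells. In replicate 2 the arterial level was lower than in replicates 1 and 3, while the level in its other classes was lower as well. Stmn2, which encodes a tubulin-binding stathmin best known from neurons, stood at 605, 561 and 658 CPM in the arterial cells and 72.2, 80.6 and 109.7 CPM in the cells of neither set. Neuron markers summed to 0.785 to 6.50 CPM in the same arterial cells.

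Bmx, a non-receptor tyrosine kinase, stood at 127, 126 and 115 CPM and Sema3g, a secreted semaphorin, at 148, 156 and 170.2 CPM in the arterial cells of replicates 1, 2 and 3. Vegfc, the ligand of the receptor Flt4, stood at 147, 104 and 93.6 CPM and Egfl8 at 197, 47.1 and 119 CPM. Egfl8 was lowest in replicate 2, as Gkn3 was, while Bmx and Sema3g differed little between libraries. Of the venous genes, Slc38a5, an amino acid transporter, stood at 4.06, 0.785 and 4.52 CPM in the arterial cells and 274, 169.6 and 351 CPM in the venous cells. Ackr1 had no UMI in any of the 1287 arterial cells, as a gene that the rule counts against membership. Vwf, which encodes von Willebrand factor, stood at 213, 193 and 354 CPM in the arterial cells, 193, 169 and 349 CPM in the cells of neither set and 581, 407 and 946 CPM in the venous cells. Cells of neither set can hold at most 1 venous gene by the rule.

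**Figure D1:**
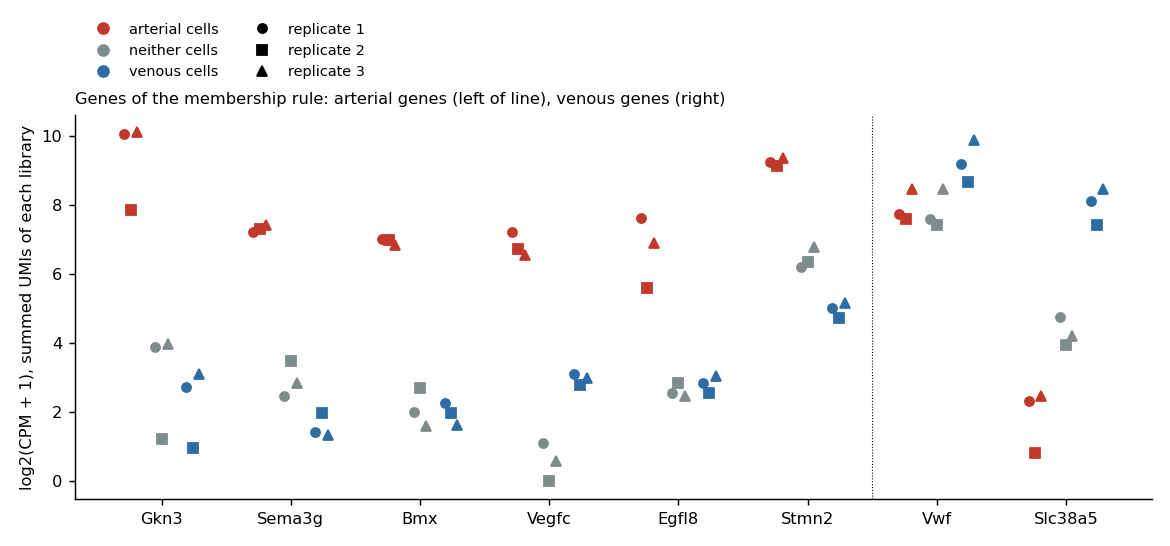
Levels of the 6 arterial genes and 2 of the venous genes of the membership rule, as log2(CPM + 1) on the y axis, in arterial (red), neither-set (grey) and venous (blue) cells. Each symbol is 1 library. The rule itself uses these genes, so the gaps between classes describe the choice; the arterial and neither-set levels of Vwf lie together, and Gkn3 and Egfl8 are lowest in replicate 2.

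The start regions of 3 arterial genes are shown here. Gkn3 lies on the minus strand at chr6:87383256-87388935, Bmx on the minus strand at chrX:164192842-164258193 and the elastic fibre gene Fbln5, described below, on the minus strand at chr12:101746565-101819055 (GENCODE M21 genes on mm10). The 250 bases before their RefSeq start (GRCm38.p6, minus strand, 5′ to 3′) are shown because Notch signalling acts through Rbpj, whose core letters TGGGAA, or TTCCCA on the other strand, were searched in them. Capitals mark a match. The windows are chr6:87388936-87389185, chrX:164258194-164258443 and chr12:101819120-101819369 (the first of 2 windows of Fbln5).
Gkn3: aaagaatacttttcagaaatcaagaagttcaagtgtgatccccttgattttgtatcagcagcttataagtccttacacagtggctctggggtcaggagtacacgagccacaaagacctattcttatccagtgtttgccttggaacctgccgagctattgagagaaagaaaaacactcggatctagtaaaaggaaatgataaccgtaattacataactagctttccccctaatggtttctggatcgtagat
Bmx: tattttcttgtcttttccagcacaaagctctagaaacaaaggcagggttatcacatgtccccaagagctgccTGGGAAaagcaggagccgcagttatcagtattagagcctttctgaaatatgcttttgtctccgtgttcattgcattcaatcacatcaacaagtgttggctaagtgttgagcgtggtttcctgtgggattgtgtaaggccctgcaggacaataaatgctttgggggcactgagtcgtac
Fbln5: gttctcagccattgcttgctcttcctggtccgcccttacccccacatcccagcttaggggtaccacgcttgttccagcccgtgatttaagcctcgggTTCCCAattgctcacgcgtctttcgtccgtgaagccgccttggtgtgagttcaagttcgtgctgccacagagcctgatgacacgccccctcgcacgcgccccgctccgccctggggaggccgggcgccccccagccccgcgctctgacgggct

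Of the 5 arterial rule genes with a window (Stmn2 had none) Bmx alone held the Rbpj letters. Among 20 of the genes higher in arterial cells in the list described below that had a window, 3 (15%) held them in any window, namely Fbln5, Crip1 and Amd1, against 24.1% of the 27025 genes with windows. The letters GGGCGG, the GC box bound by factors of the Klf and Sp families, stood in 14 of the 20 (70%) against 35.4% of all genes. The Sox letters ACAAT stood in 3 of 20 (15%) against 30.9%, and the COUP-TF letters AGGTCA in 2 of 20 (10%) against 15.8%. Both strands were searched, and none of these 4 motifs contains another. A match describes the letters in these windows and is not a binding site.

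Detection per cell was compared at equal depth, with membership set before thinning. Stmn2 is a gene of the rule, so its difference between arterial and other endothelial cells follows from the choice of cells. After each cell was thinned to 2000 UMIs, Stmn2 was detected in 64.3%, 63.9% and 68.0% of arterial cells, against 9.19%, 11.2% and 11.3% of the other endothelial cells and, in replicates 1 and 3, 0.313% and 0.466% of microglia, which should lack it. Without thinning the shares were 90.6%, 91.8% and 95.6% in arterial cells and 1.04%, 4.29% and 1.28% in microglia, at median depths of 8862, 11009 and 8087 UMIs for arterial cells and 8243, 5514 and 7484.5 UMIs for microglia. Hey1, which the rule did not read, was detected after thinning in 34.1%, 38.1% and 31.4% of arterial cells, 6.86%, 8.11% and 8.14% of other endothelial cells and 0.730%, 2.86% and 2.21% of microglia. Unthinned, the shares of Hey1 were 67.2%, 73.2% and 62.1% in arterial and 19.5%, 23.2% and 16.5% in other endothelial cells.

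The arterial cells differed among themselves in how many of the 6 genes they held. Exactly 2 were detected in 195, 33 and 110 cells of replicates 1, 2 and 3, and all 6 in 139, 7 and 71 cells. Gkn3 and Stmn2 were detected together in 66.8%, 51.5% and 75.8% of the arterial cells, and Sema3g and Bmx together in 39.8%, 44.3% and 35.7%. Exactly 1 venous gene was detected in 63.2%, 66.0% and 76.9% of the arterial cells and none in 31.3%, 24.7% and 17.2%. The venous gene was mostly Vwf, which 494 of 731, 72 of 97 and 376 of 459 arterial cells held.

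Cells with more arterial genes also differed in genes outside the rule, given here as a description with no test. From cells with 2 to cells with 6 arterial genes, Mgp, which encodes an inhibitor of vessel wall calcification, went from 479, 141 and 653 CPM to 4083, 1434 and 5005 CPM in replicates 1, 2 and 3. Hey1, a Notch target, went from 119, 235 and 143 CPM to 384, 809 and 369.6 CPM, and Eln, the elastin gene, from 23.3, 28.1 and 28.5 CPM to 131, 101 and 183 CPM. In the opposite direction, the chemokine gene Cxcl12 went from 2829, 2186 and 3156 CPM to 1233, 1226 and 1344 CPM, and the transferrin receptor gene Tfrc from 479, 341 and 361 CPM to 198, 171 and 143 CPM. The median UMI count of a cell went from 6825, 9060 and 6548.5 to 14219, 23598 and 12916 over the same range, and the part of depth in these trends was not tested. The class with 6 genes in replicate 2 held only 7 cells.

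**Figure D2:**
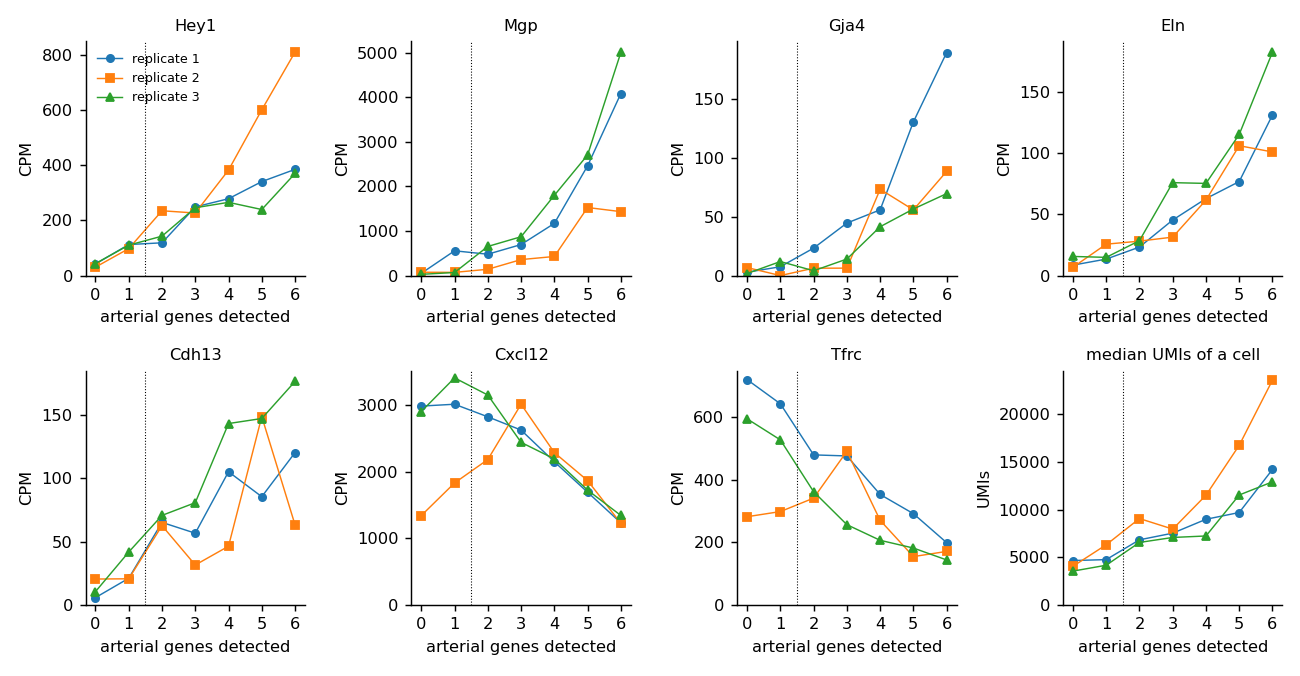
Levels in CPM of 7 genes outside the rule, and the median UMI count of a cell, by the number of arterial genes detected (x axis), 1 line per library. Cells left of the dotted line are no members and hold no venous gene. Hey1, Mgp, Gja4 and Eln are higher and Cxcl12 and Tfrc lower in cells with 6 than in cells with 2 arterial genes in every library, while the depth of the cells also differs.

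Just outside the rule stood 116, 23 and 69 cells with 1 arterial and no venous gene. Their Hey1 level was 112, 97.6 and 110.1 CPM, close to the 119, 235 and 143 CPM of the members with 2 arterial genes except in replicate 2. Their Mgp level was 555, 71.9 and 68.5 CPM, against 479, 141 and 653 CPM just inside.

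Both comparisons were made over the libraries with edgeR's quasi-likelihood test on UMIs summed per library and class, with a block for the library and p-values adjusted by Benjamini-Hochberg over all genes tested. All adjusted p-values in this text come from it, and a gene is called higher or lower at an adjusted p under 0.05. Log2 differences are arterial minus the comparison group. The comparison groups overlap and both comparisons use the same arterial profiles, so their values are set side by side and are not independent. Against the other endothelial cells 11316 genes were tested, of which 10.7% were higher and 8.96% lower in arterial cells. Against the venous cells 10572 genes were tested, of which 11.5% were higher and 8.52% lower. These shares are the background of every count of list members below, and a count near its share is no result about the list. The median log2 difference of all genes tested was -0.02 in both. The differences within each library had the same sign in all 3 libraries for each called gene given with a log2 difference below, except Dll4, Kcnj2, Acta2 and Tagln. Libraries differed in level, and the test compared classes within a library. Across libraries the levels of arterial and other endothelial cells overlapped for Dll4, Notch1, Lfng, Acvrl1, Id1, Kcnj2, Adm, Klf2, Klf4, Hbegf, Vcam1, Cx3cl1, Ccl2, Lmna, Hk2, Fos, Slc1a3, Lcn2, Tmem119, Acta2 and Tagln, and did not for the other genes given below with a call against those cells.

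Of 32 measured genes of a list of arterial genes outside the rule, 28 were tested against the other endothelial cells. Of these, 26 were higher and 2 lower (10.7% and 8.96% of all genes tested), with a median log2 difference of 1.63. Against the venous cells 25 of 28 were higher and 1 lower (11.5% and 8.52% of all genes tested), with a median of 1.94. The list was drawn up with earlier results of these data known and gives no independent evidence of its direction. The 4 genes not tested were at or near 0: Gja5 stood at 5.28, 0.785 and 2.14 CPM in the arterial cells and had no UMI in the other endothelial cells (3 counts there would be 0.130 CPM), and Aqp1, Rbp7 and Kcne3 were below 1 CPM in the arterial cells on average. Without replicate 1, or without replicate 3, 1 gene of the list was lower than in other endothelial cells in place of 2, since the call of Cxcl12 was lost. Fos was called higher, but not without replicate 1 or without replicate 3.

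Gja4, which encodes the gap junction protein connexin 37, stood at 98.1, 44.8 and 38.8 CPM in the arterial cells of replicates 1, 2 and 3 and at 2.39, 4.55 and 1.34 CPM in the other endothelial cells. The log2 difference from those cells was 4.93 (SE 0.21, adjusted p = 5.0e-09). In venous cells Gja4 stood at 0.914, 0.975 and 0.608 CPM. In that comparison it passed the low-count filter through the arterial cells alone, so its fitted difference is not given. Arterial levels lay far above both comparison groups in every library, and replicate 1 was the highest. Hey1 stood at 283, 443 and 258 CPM against 37.0, 43.6 and 39.5 CPM, a log2 difference of 2.96 (SE 0.09, adjusted p = 3.1e-10). In venous cells Hey1 stood at 15.4, 15.6 and 9.12 CPM, and the log2 difference was 4.49 (SE 0.12, adjusted p = 2.1e-13). Efnb2 stood at 159, 123 and 94.3 CPM in arterial, 61.8, 36.9 and 32.7 CPM in neither-set and 16.4, 11.7 and 6.99 CPM in venous cells, so that the levels were ordered from arterial to venous in each library. Its log2 difference was 2.10 (SE 0.08, adjusted p = 1.3e-09) from the other cells and 3.41 (SE 0.12, adjusted p = 3.1e-12) from the venous cells.

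Cytl1, a secreted cytokine-like protein, stood at 31.6, 3.93 and 40.7 CPM against 0, 0 and 0.537 CPM. The other cells held 4 Cytl1 UMIs in all, so it passed the filter through the arterial cells alone and its fitted difference is not given. Replicate 2 carried only a small part of the level of the other 2 libraries. Venous cells held 3 Cytl1 UMIs. Pi16, a secreted peptidase inhibitor, stood at 28.7, 109.97 and 37.1 CPM against 0.539, 1.52 and 0.269 CPM, here with replicate 2 the highest. Pi16 also passed the filter through the arterial cells alone, so its fitted difference is not given. Alpl, the tissue-nonspecific alkaline phosphatase, stood at 397, 297 and 492 CPM in arterial, 128, 108 and 149 CPM in neither-set and 33.2, 30.2 and 45.6 CPM in venous cells. The log2 difference was 2.22 (SE 0.08, adjusted p = 5.1e-10) from the other cells and 3.50 (SE 0.09, adjusted p = 1.4e-13) from the venous cells.

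Against the list's direction, Nrp1, a co-receptor of Vegf and semaphorins, was lower in arterial cells, at 123, 83.3 and 107 CPM against 178, 171 and 179 CPM in the other endothelial cells. The log2 difference was -0.69 (SE 0.08, adjusted p = 3.8e-05), and -0.59 (SE 0.10, adjusted p = 4.1e-04) against venous cells. All 3 arterial levels lay below all 3 levels of the other cells. Cxcl12 stood at 2023, 2098 and 2124 CPM in arterial, 3234, 2473 and 3390.2 CPM in neither-set and 1875, 2138 and 1717 CPM in venous cells. It was lower than in the other endothelial cells by a log2 difference of -0.25 (SE 0.06, adjusted p = 0.0062). Against the venous cells the log2 difference was 0.15 (SE 0.08, adjusted p = 0.21) and was not called, while it was called higher without replicate 2 (0.22, adjusted p = 0.034) and after thinning to 2000 UMIs (0.32, adjusted p = 0.045).

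**Figure D3:**
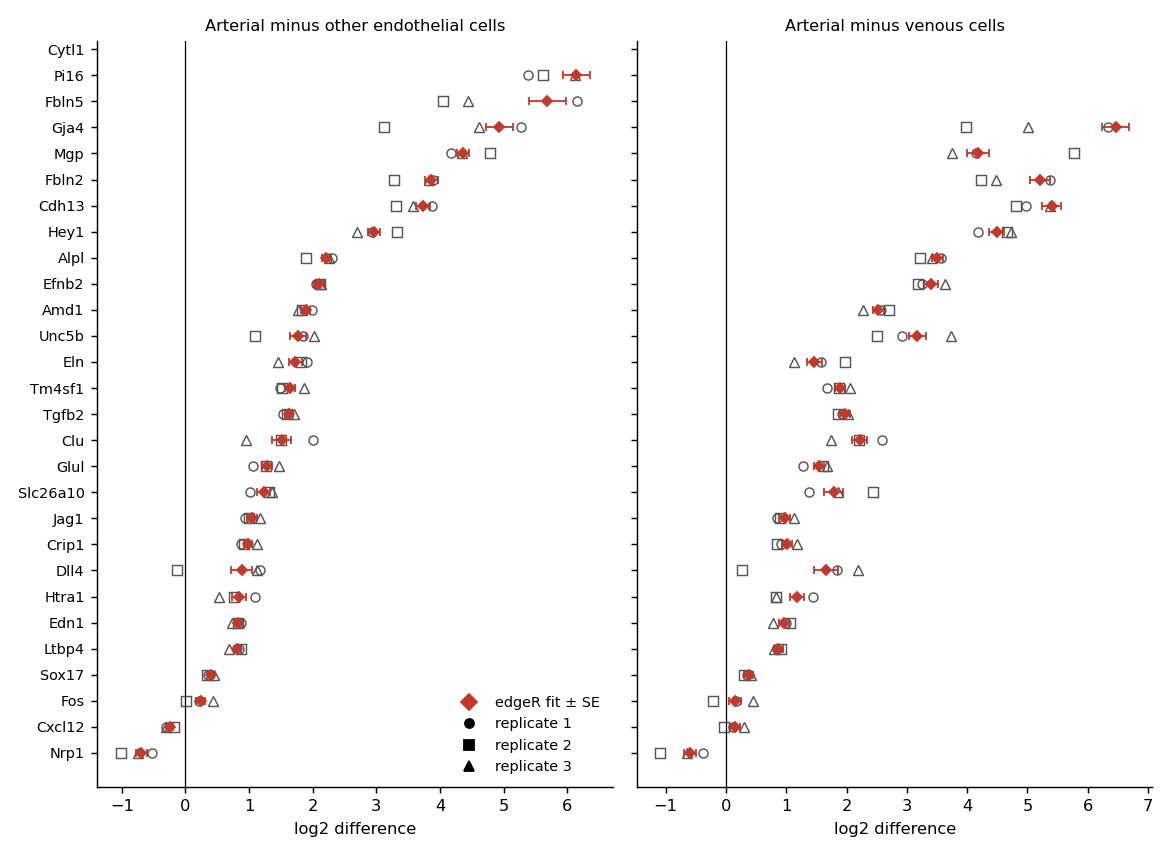
Log2 differences of the 28 tested genes of the arterial list (rows) between arterial and other endothelial cells (left) and between arterial and venous cells (right). Red diamonds are edgeR's fitted values with their SE, and open symbols are the differences of log2 CPM within each library. Cytl1 in both panels and Fbln5 and Pi16 on the right have no value because the comparison group held at most 4 of their UMIs. Fbln5 and Pi16 on the left and Gja4 and Cdh13 on the right passed the filter through the arterial cells alone. Nrp1 is the gene furthest below 0 in both panels.

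In the Notch pathway 3 ligands, 2 receptors and the target Hey1 were higher in arterial cells. Of 28 genes, 25 were tested against the other endothelial cells. Of these, 6 were higher and 3 lower (10.7% and 8.96% of all genes tested), with a median log2 difference of 0.09. Without replicate 2, 9 were higher. The ligand Jag1 stood at 94.5, 129.6 and 93.1 CPM against 49.6, 64.8 and 41.4 CPM, a log2 difference of 1.04 (SE 0.08, adjusted p = 9.3e-07). Jag2 stood at 227, 243 and 272 CPM against 125, 157 and 166 CPM, a log2 difference of 0.77 (SE 0.06, adjusted p = 2.0e-06). Both ligands were higher in arterial cells in all 3 libraries with no overlap between the groups. Dll4, a ligand prominent in arterial and sprouting endothelium, stood at 234, 123 and 164 CPM against 104, 136 and 75.5 CPM. The log2 difference of Dll4 was 0.88 (SE 0.16, adjusted p = 0.0016), although in replicate 2 the arterial level was the lower one, and DESeq2 did not call it.

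Among the receptors, Notch4 had a log2 difference of 0.58 (SE 0.09, adjusted p = 3.3e-04) from the other endothelial cells and Notch1 one of 0.40 (SE 0.08, adjusted p = 0.0025). Notch1 groups overlapped between libraries, while Notch4 groups did not. The target Hey1 is described above, and Hey2 and Heyl were below 3 CPM in the arterial cells. Hes1, another target, stood at 478, 705 and 653 CPM in arterial and 412, 1108 and 709 CPM in other endothelial cells, a log2 difference of -0.15 (SE 0.11, adjusted p = 0.43) that was not called. Without replicate 1, Hes1 was called lower at -0.36 (adjusted p = 7.8e-04), and against venous cells, where it was not called either, it was called higher without replicate 2 at 0.40 (adjusted p = 0.0012). Hes5, a further target, was called lower, at 2.57, 0.785 and 2.38 CPM in arterial, 7.39, 4.55 and 4.03 CPM in other and 1.83, 0 and 0.912 CPM in venous cells, a log2 difference of -1.33 (SE 0.31, adjusted p = 0.0085) from the other cells. The call of Hes5 was lost without replicate 1, by DESeq2, with the 10% mitochondrial limit and with doublets removed. Rbpj itself stood at 41.8, 50.3 and 33.6 CPM against 40.0, 41.7 and 34.1 CPM, a log2 difference of 0.09 (SE 0.09, adjusted p = 0.6), not called either. The glycosyltransferase genes Lfng and Mfng were called lower, at log2 differences of -0.64 and -0.32, but not without replicate 3, where 1 gene of the list was lower in place of 3. Against venous cells 8 of 23 were higher and 2 lower (11.5% and 8.52% of all genes tested). Without replicate 1 those counts were 6 and 1, and without replicate 3, 7 were higher and neither lower call was kept.

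Of 25 elastic fibre and matrix genes 19 were tested. Of these, 11 were higher in arterial cells (10.7% of all genes tested) and 3 lower (8.96%), with a median log2 difference of 0.81. Without replicate 3, 10 were higher and 1 was lower. Mgp stood at 2001, 797 and 2328 CPM in arterial and 111, 28.0 and 114 CPM in other endothelial cells, a log2 difference of 4.37 (SE 0.09, adjusted p = 2.1e-11), with replicate 2 lowest in both groups. Eln stood at 73.9, 67.6 and 99.99 CPM against 19.6, 18.9 and 36.3 CPM, a log2 difference of 1.73 (SE 0.10, adjusted p = 8.4e-08). Fbln5, which tethers elastin to cells, stood at 27.2, 17.3 and 25.7 CPM against 0.231, 0.379 and 0.94 CPM. It passed the filter through the arterial cells alone, so its fitted difference is not given. In venous cells only 2 Fbln5 UMIs were counted.

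Fbln2, a related fibulin, stood at 113, 53.4 and 108 CPM against 7.47, 4.93 and 7.39 CPM, a log2 difference of 3.87 (SE 0.11, adjusted p = 1.1e-10). The microfibril gene Fbn1 stood at 5.82, 4.71 and 5.71 CPM against 0.616, 0.379 and 0.269 CPM. It had no UMI in venous cells (3 counts there would be 0.276 CPM). Fbn1 passed the filter through the arterial cells alone, so its fitted difference is not given. Each of these genes was higher in all 3 libraries without overlap. Timp3, a matrix-bound inhibitor of metalloproteases, stood at 1850.5, 2263 and 1690.2 CPM against 1000.5, 999 and 773 CPM, a log2 difference of 1.08 (SE 0.07, adjusted p = 1.3e-07). Sparcl1, a matricellular glycoprotein, was lower by a log2 difference of -0.33 (SE 0.06, adjusted p = 0.0017), and Sparc, of the same family, stood at 1030.1, 852 and 902 CPM against 1121, 834 and 894 CPM and was not called. Against venous cells 9 of 17 genes of the list were higher and 2 lower (11.5% and 8.52% of all genes tested). The median was 0.87, and without replicate 3 the counts were 10 and 1.

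Among basement membrane genes, 7 of 12 tested were higher and 2 lower than in other endothelial cells (10.7% and 8.96% of all genes tested). The median log2 difference was 0.23, and without replicate 1 the counts were 5 and 1. Col18a1, which encodes the collagen that releases endostatin, stood at 62.6, 62.8 and 60.0 CPM in arterial and 2.23, 3.03 and 2.28 CPM in other endothelial cells. Its log2 difference from those cells was 4.72 (SE 0.14, adjusted p = 1.5e-10). In venous cells Col18a1 stood at 0.914, 0.975 and 1.22 CPM. There it passed the filter through the arterial cells alone, so that fitted difference is not given. The 3 arterial levels were close to each other and far above all others. Of the laminin genes, Lama3 had a log2 difference of 2.64 (SE 0.25, adjusted p = 7.1e-06), Lamc1 one of 0.59 (SE 0.09, adjusted p = 3.3e-04) and Lama5 one of 0.50 (SE 0.09, adjusted p = 0.0016). Nid1, which links laminin to collagen IV, was lower, at 12.3, 10.2 and 13.3 CPM against 24.1, 29.6 and 22.8 CPM, a log2 difference of -0.96 (SE 0.14, adjusted p = 2.6e-04). Against venous cells 7 of 12 were higher and 2 lower (11.5% and 8.52% of all genes tested), and 6 and 1 without replicate 1.

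Junction genes differed less. Against other endothelial cells 3 of 15 tested were higher and 2 lower (10.7% and 8.96% of all genes tested), with a median of 0.05. Without replicate 2 both counts were 4. Beside Gja4, the gap junction gene Gja1 (connexin 43) was higher, at 163, 71.5 and 88.6 CPM against 70.9, 33.0 and 36.1 CPM, a log2 difference of 1.23 (SE 0.08, adjusted p = 1.2e-07). Gjc1 (connexin 45) was lower, at 97.8, 61.3 and 85.7 CPM against 145, 103 and 138 CPM, a log2 difference of -0.63 (SE 0.07, adjusted p = 2.5e-05). Thus of the connexins tested, 2 were higher and 1 lower. Gja1 is also an astrocyte marker, and the other 7 astrocyte markers outside the rule summed to 187, 159 and 225 CPM in the arterial cells, 218, 151 and 282 CPM in the other cells and 136, 80.9 and 187 CPM in the venous cells. Of these 7, Slc1a3 alone was called against the other endothelial cells, as lower, but not without replicate 1 or without replicate 3. The tight junction scaffold Tjp1 was lower by a log2 difference of -0.32 (SE 0.06, adjusted p = 0.0017). The junction gene Ocln stood at 194, 235 and 215 CPM against 209, 235 and 246 CPM and was not called, except as lower after thinning. Against venous cells 4 of 15 junction genes were higher and 5 lower (11.5% and 8.52% of all genes tested). Without replicate 1 and without replicate 3 both counts were 2.

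Transcription factor genes moved in both directions. Of 30 tested against other endothelial cells, 8 were higher and 9 lower (10.7% and 8.96% of all genes tested), with a median of -0.09. Without replicate 3 the counts were 7 and 5, and without replicate 1 they were 7 and 6. The venous factor Nr2f2 had the largest difference of the list, at 10.2, 7.07 and 8.33 CPM in arterial, 24.6, 30.7 and 23.3 CPM in neither-set and 128, 75.1 and 103 CPM in venous cells. Its log2 difference was -2.87 (SE 0.11, adjusted p = 2.6e-09) from the other cells and -3.61 (SE 0.12, adjusted p = 1.5e-12) from the venous cells. Arterial levels were below those of the cells of neither set in every library. Cells of neither set were shallower than venous cells and may include venous cells with too few genes detected. Thinned to 2000 UMIs, 204, 28 and 168 cells met the venous rule, against 500, 72 and 323 unthinned. The part of such cells in the levels of the neither set was not tested. Sox18, a factor of vessel and lymph vessel development, was higher at 647, 482 and 678 CPM against 343, 261 and 422 CPM, a log2 difference of 0.84 (SE 0.06, adjusted p = 6.2e-07). Its relative Sox17, which acts in arterial specification, stood at 697, 618 and 625 CPM against 545, 491 and 456 CPM, a log2 difference of 0.40 (SE 0.06, adjusted p = 2.1e-04).

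Ebf1 was higher by a log2 difference of 0.69 (SE 0.06, adjusted p = 1.9e-06), the hypoxia factor Epas1 by 0.60 (SE 0.05, adjusted p = 3.4e-06) and Mecom by 0.56 (SE 0.08, adjusted p = 1.4e-04). Fli1, an Ets factor of endothelial cells, was lower by a log2 difference of -0.48 (SE 0.07, adjusted p = 1.5e-04), and its relative Erg stood at 55.7, 33.8 and 45.9 CPM against 48.7, 34.5 and 37.7 CPM and was not called, except without replicate 2 and under strict membership (higher). Meox1 was lower by a log2 difference of -1.47 (SE 0.20, adjusted p = 1.2e-04). Against venous cells 9 of 30 were higher and 9 lower (11.5% and 8.52% of all genes tested).

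The Tgf-beta and Bmp pathway showed higher ligand and inhibitor levels beside lower levels of some transducers. Of 23 genes tested against the other endothelial cells 9 were higher and 6 lower (10.7% and 8.96% of all genes tested). The median was -0.03. Without replicate 3, 8 were higher and 3 lower, and without replicate 1, 7 and 4. The ligand Tgfb2 stood at 289, 263 and 287 CPM against 99.9, 87.2 and 87.5 CPM, a log2 difference of 1.63 (SE 0.07, adjusted p = 3.6e-09). The inhibitory Smad6 stood at 129, 132 and 116 CPM against 45.9, 40.5 and 48.5 CPM, a log2 difference of 1.46 (SE 0.08, adjusted p = 6.3e-08). Both genes were more than 1 log2 unit higher with no overlap between groups. The receptors Tgfbr2 and Acvrl1 had log2 differences of 0.40 (SE 0.06, adjusted p = 3.4e-04) and 0.33 (SE 0.06, adjusted p = 0.0011), and the co-receptor Tgfbr3 (betaglycan) one of -0.63 (SE 0.08, adjusted p = 9.9e-05). Smad3, a transducer of Tgf-beta receptors, was lower at 10.6, 7.85 and 7.86 CPM against 20.3, 22.7 and 18.0 CPM, a log2 difference of -1.08 (SE 0.15, adjusted p = 1.6e-04). The targets Id1 and Id3 were higher by 0.36 and 0.34 on the log2 scale.

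Genes that act on vessel tone included 10 higher and 3 lower of 24 tested (10.7% and 8.96% of all genes tested), with a median of 0.24. Edn1, the precursor of the vasoconstrictor endothelin-1, stood at 622, 712 and 569 CPM against 340.1, 401 and 341 CPM, a log2 difference of 0.83 (SE 0.06, adjusted p = 2.8e-07). Nos3, the endothelial nitric oxide synthase, stood at 187, 165 and 192 CPM against 197, 168 and 215 CPM, a log2 difference of -0.08 (SE 0.06, adjusted p = 0.44) that was not called. Edn1 groups did not overlap, while Nos3 groups did. From venous cells Nos3 did differ, as it was called lower, though not at interquartile depth. Nos1, the neuronal synthase, is not a member of this list but was among the largest differences from the other endothelial cells. It stood at 50.9, 64.4 and 53.8 CPM against 0.924, 2.27 and 1.75 CPM, a log2 difference of 5.29 (SE 0.17, adjusted p = 4.2e-10). Neuron markers were at or near 0 in the same cells.

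Trpv4, a mechanically and osmotically sensitive calcium channel, stood at 26.0, 46.3 and 39.0 CPM against 6.16, 9.47 and 7.79 CPM, a log2 difference of 2.22 (SE 0.13, adjusted p = 8.3e-08). Ptgis, the prostacyclin synthase, stood at 21.4, 18.9 and 18.3 CPM in arterial, 2.85, 0 and 0 CPM in neither-set and 13.6, 9.75 and 7.30 CPM in venous cells, so that it was lowest in the cells of neither set. This was a log2 difference of 1.72 (SE 0.20, adjusted p = 4.4e-05) from the other cells and 0.89 (SE 0.18, adjusted p = 0.0016) from the venous cells. The potassium channel gene Kcnj2 was higher by a log2 difference of 1.10 (SE 0.19, adjusted p = 0.0012), with the opposite sign in 1 library and no call by DESeq2, and the converting enzyme Ace by 1.16 (SE 0.17, adjusted p = 3.2e-04). Without replicate 1 these were 0.66 and 0.68. Adm, which encodes the vasodilator adrenomedullin, was lower at 98.2, 248 and 116 CPM against 188, 565 and 215 CPM, a log2 difference of -0.98 (SE 0.07, adjusted p = 4.2e-07). Its level in replicate 2 was the highest in both groups. Against venous cells 7 of 21 were higher and 7 lower (11.5% and 8.52% of all genes tested). Without replicate 1 and without replicate 3 these counts were 7 and 4.

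Of the shear stress genes 6 of 16 tested were higher and 2 lower (10.7% and 8.96% of all genes tested), with a median of 0.16. The flow-responsive factors Klf2 and Klf4 were higher by small log2 differences of 0.38 (SE 0.06, adjusted p = 5.7e-04) and 0.32 (SE 0.05, adjusted p = 7.7e-04), with overlapping groups. Heg1, a junctional partner of the Ccm complex, was higher by 0.62 (SE 0.06, adjusted p = 1.2e-05) and Sox13 by 0.77 (SE 0.09, adjusted p = 2.6e-05) on the log2 scale, without overlap. Without replicate 2, 9 genes of the list were higher.

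Signals to mural cells, the smooth muscle cells and pericytes that wrap vessels, included 7 higher and 4 lower of 16 tested genes. These counts stand beside 10.7% and 8.96% of all genes tested. The median was 0.36, and without replicate 3 the counts were 7 and 1. Pdgfa stood at 136, 178 and 128 CPM against 32.3, 33.7 and 30.1 CPM, a log2 difference of 2.16 (SE 0.08, adjusted p = 1.8e-09). Pdgfb, the ligand that recruits pericytes, stood at 267, 425 and 339 CPM against 204, 261 and 365 CPM, a log2 difference of 0.31 (SE 0.11, adjusted p = 0.061) that was not called. Pdgfb was called higher in 6 alternatives, at 0.56 (adjusted p = 4.7e-04) without replicate 3 and at 0.28 to 0.41 in the others: without replicate 1, strict membership, no filter, and cells with smooth muscle or microglia markers removed. The levels of Pdgfa did not overlap between groups and those of Pdgfb did. Compared with venous cells Pdgfb was called higher, though not at interquartile depth or without replicate 2. Sema3f, a secreted semaphorin, was higher at 9.75, 8.64 and 10.95 CPM against 0.462, 2.27 and 0.537 CPM, a log2 difference of 3.79 (SE 0.39, adjusted p = 1.4e-05). The receptor S1pr1 was higher by a log2 difference of 0.59 (SE 0.06, adjusted p = 6.3e-06). Hbegf, a ligand of the Egf receptor, was higher by 0.74 (SE 0.07, adjusted p = 7.1e-06).

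In the Vegf and angiopoietin pathway 2 of 15 tested genes were higher and 6 lower (10.7% and 8.96% of all genes tested), with a median of -0.02. Without replicate 2, 4 were higher and 7 lower. The receptor Kdr (Vegf receptor 2) was lower at 345, 263 and 287 CPM against 514, 359 and 465 CPM, a log2 difference of -0.57 (SE 0.06, adjusted p = 2.4e-05). Nrp2, a co-receptor known from veins and lymph vessels, was lower at 10.0, 10.2 and 4.29 CPM against 79.6, 45.1 and 48.6 CPM, a log2 difference of -3.00 (SE 0.15, adjusted p = 2.0e-08). Together with Nrp1, both neuropilins were thus lower in arterial cells. The ligand Vegfb was lower by a log2 difference of -0.83 (SE 0.13, adjusted p = 5.8e-04). Spry4, a feedback inhibitor of receptor tyrosine kinases, was higher at 27.1, 34.6 and 14.3 CPM against 8.16, 11.4 and 2.69 CPM, a log2 difference of 1.85 (SE 0.16, adjusted p = 3.8e-06), and 3.47 (SE 0.25, adjusted p = 3.2e-08) from venous cells. The receptor Tek, which binds angiopoietins, stood at 211, 249 and 255 CPM against 206, 212 and 247 CPM and was not called.

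Blood-brain barrier transporters were mostly lower in arterial cells. Of 28 tested against the other endothelial cells 17 were lower and 6 higher (8.96% and 10.7% of all genes tested). The median log2 difference was -0.35. Tfrc, which takes up transferrin-bound iron, stood at 343, 269 and 224 CPM against 762, 565 and 544 CPM, a log2 difference of -1.16 (SE 0.06, adjusted p = 3.0e-08). Slc16a1, the monocarboxylate transporter of lactate and ketone bodies, stood at 323, 218 and 211 CPM against 699, 736 and 656 CPM, a log2 difference of -1.45 (SE 0.10, adjusted p = 2.4e-07). Slc7a5, which exchanges large neutral amino acids, stood at 307, 281 and 431 CPM against 577, 561 and 856 CPM, a log2 difference of -0.94 (SE 0.06, adjusted p = 8.8e-08). For these 3 genes every arterial level lay below every level of the other cells.

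The organic anion transporter Slc22a8 was lower by a log2 difference of -1.04 (SE 0.07, adjusted p = 4.9e-07), the glutamine transporter Slc38a3 by -1.15 (SE 0.09, adjusted p = 8.3e-07) and the iron exporter Slc40a1 by -1.01 (SE 0.06, adjusted p = 1.5e-07). In contrast, Slc2a1, the glucose transporter of the barrier, was higher at 3024, 3193 and 3035 CPM against 2506, 2475 and 2357 CPM, a log2 difference of 0.35 (SE 0.05, adjusted p = 4.1e-04). Slc6a6, the taurine transporter, was higher at 2382, 2708 and 2166 CPM against 1848, 1719 and 1549 CPM, a log2 difference of 0.52 (SE 0.06, adjusted p = 6.2e-05). Abcb1a, which encodes the efflux pump P-glycoprotein, stood at 1051, 1025 and 965 CPM against 1196, 1024 and 1053 CPM, a log2 difference of -0.09 (SE 0.06, adjusted p = 0.34) that was not called. Against venous cells 18 of 28 were lower and 6 higher (8.52% and 11.5% of all genes tested). The median was -0.42, and without replicate 3 the counts were 17 and 3.

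The capillary list shares several of these transporters. It had 11 of 16 tested genes lower and 2 higher (8.96% and 10.7% of all genes tested), with a median of -0.56 (10 and 1 without replicate 1). The matrix gene Hmcn1 was lower at 87.6, 99.8 and 112 CPM against 233, 312 and 305 CPM, a log2 difference of -1.45 (SE 0.07, adjusted p = 9.1e-09). Mfsd2a, the lipid transporter that restrains transcytosis, stood at 207, 168 and 282 CPM against 185, 200.1 and 273 CPM, a log2 difference of 0.04 (SE 0.07, adjusted p = 0.77), and was not called. Fabp4, a fatty acid binding protein, was higher at 11.2, 6.28 and 7.38 CPM against 0.308, 0 and 0.403 CPM, at a low level. It passed the filter through the arterial cells alone, so its fitted difference is not given. Against venous cells 9 of 16 were lower and 3 higher (8.52% and 11.5% of all genes tested), and 9 and 5 without replicate 2.

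**Figure D4:**
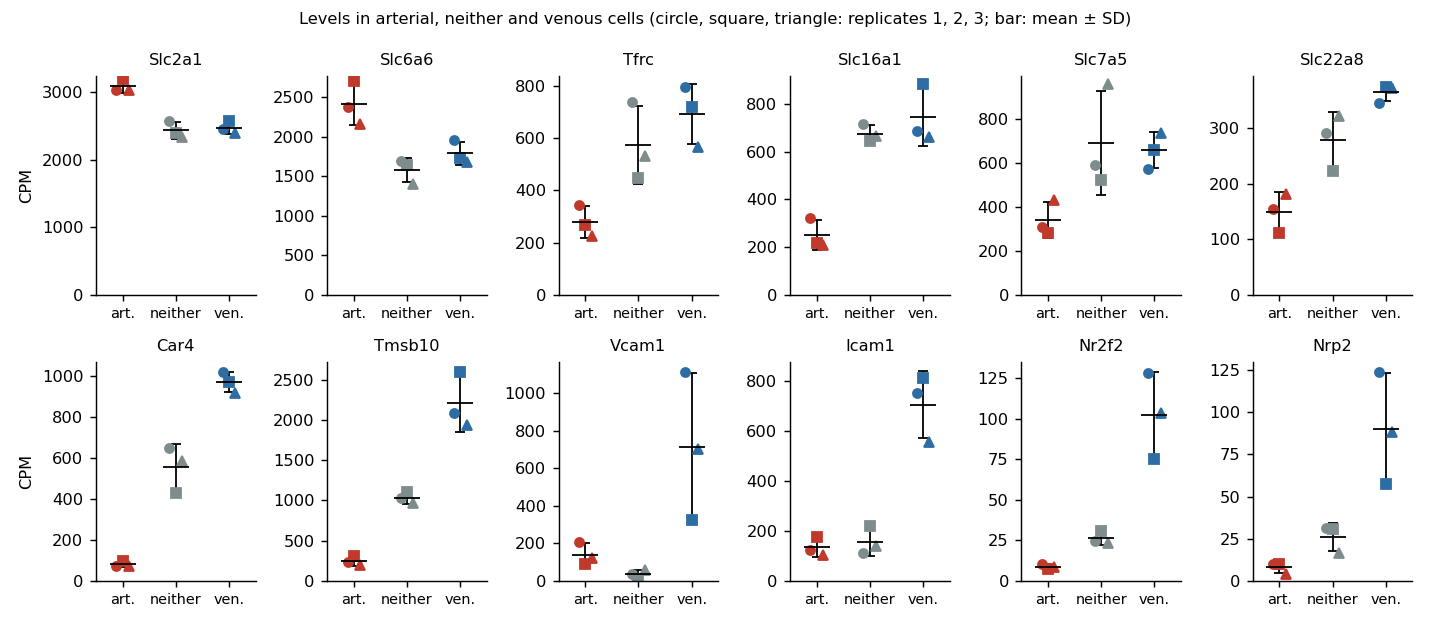
Levels in CPM of 12 genes outside the rule in arterial, neither-set and venous cells. Circles, squares and triangles are replicates 1, 2 and 3, and bars give the mean ± SD over the 3 libraries. Slc2a1 and Slc6a6 are highest and Tfrc, Slc16a1, Slc7a5 and Slc22a8 lowest in arterial cells; Car4, Tmsb10, Nr2f2 and Nrp2 step up from arterial through neither-set to venous cells, while Vcam1 is lowest in the cells of neither set.

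Venous genes outside the rule were lower in arterial cells, in 13 of 16 tested against the other endothelial cells, with 1 higher. These counts stand beside 8.96% and 10.7% of all genes tested, and the median was -1.50. Against venous cells 14 of 16 were lower and 1 higher (8.52% and 11.5% of all genes tested), with a median of -2.37. Car4, a carbonic anhydrase of the capillary and venous surface, stood at 71.1, 96.6 and 73.6 CPM in arterial, 649, 430.3 and 586 CPM in neither-set and 1021, 973 and 919 CPM in venous cells. The log2 difference was -3.28 (SE 0.11, adjusted p = 5.1e-10) from the other cells and -3.62 (SE 0.10, adjusted p = 2.1e-13) from the venous cells. Tmsb10, which binds actin monomers, stood at 231, 309 and 194 CPM in arterial, 1028, 1104 and 962 CPM in neither-set and 2088, 2602 and 1932 CPM in venous cells, a log2 difference of -2.69 (SE 0.08, adjusted p = 1.1e-10) from the other cells. Both genes were thus lower in arterial cells than in the cells of neither set and in venous cells. The part of undetected venous cells in the neither set was not tested. Lcn2, the siderophore-binding lipocalin, stood at 9.89, 0 and 17.9 CPM in arterial and 194, 23.4 and 168 CPM in venous cells, a log2 difference of -3.82 (SE 0.17, adjusted p = 8.9e-11), with replicate 2 lowest in both groups.

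Of leukocyte adhesion genes, 6 of 15 tested were higher and 6 lower than in other endothelial cells (10.7% and 8.96% of all genes tested). The median was -0.11. Vcam1, the ligand of the leukocyte integrin VLA-4, stood at 206, 89.5 and 120.2 CPM in arterial, 36.7, 10.9 and 55.2 CPM in neither-set and 1112, 325 and 702 CPM in venous cells. Its log2 difference was -1.35 (SE 0.12, adjusted p = 2.7e-06) from all other endothelial cells and -2.34 (SE 0.10, adjusted p = 8.5e-11) from the venous cells. After thinning to 2000 UMIs, with the rule applied again, the difference from the other cells was -0.20 (adjusted p = 0.37) and not called. Arterial cells thus stood above the cells of neither set and below venous cells in every library. Icam1 stood at 121, 176 and 105 CPM in arterial, 109.9, 219 and 139.6 CPM in neither-set and 751, 809 and 554 CPM in venous cells, and differed from venous cells by -2.41 (SE 0.09, adjusted p = 7.4e-12) on the log2 scale. E-selectin (Sele) had 1 UMI in all arterial cells, against 41.3, 10.7 and 20.7 CPM in venous cells, and P-selectin (Selp) had none (3 counts there would be 0.233 CPM), against 29.1, 0 and 10.3 CPM in venous cells. Icam2, in contrast, was higher in arterial cells by a log2 difference of 0.44 (SE 0.08, adjusted p = 0.0011), Mcam by 1.76 (SE 0.19, adjusted p = 1.7e-05) and the membrane chemokine Cx3cl1 by 0.86 (SE 0.08, adjusted p = 7.4e-06). Cxcl10, an interferon-induced chemokine, was lower at 6.64, 21.2 and 16.2 CPM against 87.3, 28.3 and 45.3 CPM in venous cells, a log2 difference of -2.42 (SE 0.33, adjusted p = 4.2e-05) (-1.14 without replicate 1). Ccl2 was lower than in the other endothelial cells by -2.31 (SE 0.25, adjusted p = 2.1e-05) on the log2 scale, a group in which microglia markers were also higher; against venous cells its log2 difference was 0.94 (SE 0.34, adjusted p = 0.063) and was not called, while it was called higher without replicate 1 at 1.77 (adjusted p = 0.0037), with the 10% mitochondrial limit, with doublets removed and with no filter.

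Of the coagulation genes 4 of 14 tested were higher and 4 lower (10.7% and 8.96% of all genes tested), with a median of -0.03. Procr, the endothelial protein C receptor, was higher at 61.6, 41.6 and 53.3 CPM against 23.6, 17.8 and 18.1 CPM, a log2 difference of 1.43 (SE 0.10, adjusted p = 3.2e-07). Entpd1, the ectonucleotidase that breaks down platelet-activating ADP, was higher by 1.14 (SE 0.08, adjusted p = 2.5e-07). F5, coagulation factor V, stood at 0.542, 0 and 0.476 CPM in arterial and 24.8, 7.80 and 30.7 CPM in venous cells. It passed the filter through the venous cells alone, so its fitted difference is not given. Thbd, thrombomodulin, stood at 159.8, 221 and 144 CPM against 186, 168 and 148 CPM and was not called.

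MHC class I and interferon response genes were higher by small differences that depended on single libraries. Of 16 class I genes 11 were higher than in other endothelial cells (10.7% of all genes tested), with a median of 0.28. Without replicate 1 only 5 were higher, and without replicate 3 also 5. Against venous cells 4 were higher (11.5% of all genes tested), and none of these calls was kept without replicate 1 or without replicate 3. H2-D1 stood at 2392, 1884 and 2360.4 CPM against 1852, 1539 and 1761 CPM, a log2 difference of 0.38 (SE 0.05, adjusted p = 2.1e-04). Of 26 interferon response genes 15 were higher and 2 lower (10.7% and 8.96% of all genes tested), with a median of 0.27. Against venous cells 6 were higher and 2 lower (11.5% and 8.52% of all genes tested), and 12 higher without replicate 2. Without replicates 1, 2 and 3 in turn, 6, 17 and 7 were higher. Of the 2 lower calls 1 was left without replicate 1 or without replicate 2, and none without replicate 3. Ifitm3, which hinders virus entry, stood at 2063, 1425 and 1969 CPM against 1354, 858 and 1166 CPM, a log2 difference of 0.71 (SE 0.06, adjusted p = 1.4e-06). Irf7, a factor of the interferon response, had a log2 difference of 0.73 (SE 0.08, adjusted p = 3.1e-05), and 0.91 (SE 0.09, adjusted p = 9.4e-07) from venous cells.

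Cytoskeletal and calcium-binding genes had 15 of 30 tested members higher and 3 lower (10.7% and 8.96% of all genes tested), with a median of 0.31. S100a6, a calcium-binding protein, stood at 169, 141 and 289 CPM in arterial, 39.2, 11.6 and 56.8 CPM in neither-set and 7.77, 1.95 and 16.7 CPM in venous cells. Its log2 difference was 2.98 (SE 0.14, adjusted p = 8.4e-09) from the other cells and 4.38 (SE 0.14, adjusted p = 1.2e-12) from the venous cells. Mylk, the myosin light chain kinase, stood at 70.8, 66.0 and 58.6 CPM against 10.5, 16.3 and 12.2 CPM, a log2 difference of 2.47 (SE 0.13, adjusted p = 2.3e-08). Mylk is also a smooth muscle marker, and the smooth muscle markers Acta2 and Tagln, higher in replicates 1 and 3 and lower in replicate 2, were called higher as well, but not without replicate 3. With cells that held at least 2 of Acta2, Tagln, Myh11 and Myl9 removed, the call of Mylk was kept. Acta2 and Tagln were not called in that run, at log2 differences of 0.27 and -0.01. This removal reads Acta2 and Tagln themselves, so the loss of their calls follows in part from it. It does not read Mylk, and the part of smooth muscle RNA in Mylk was not tested. The intermediate filament gene Vim was higher by 0.71 (SE 0.06, adjusted p = 1.9e-06), and Lmna, which encodes lamins A and C, by 0.74 (SE 0.08, adjusted p = 1.3e-05). Csrp2, a LIM domain protein, was lower by a log2 difference of -0.67 (SE 0.07, adjusted p = 2.2e-05). Against venous cells 16 of 29 were higher and 4 lower (11.5% and 8.52% of all genes tested), and 13 and 2 without replicate 3.

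**Figure D5:**
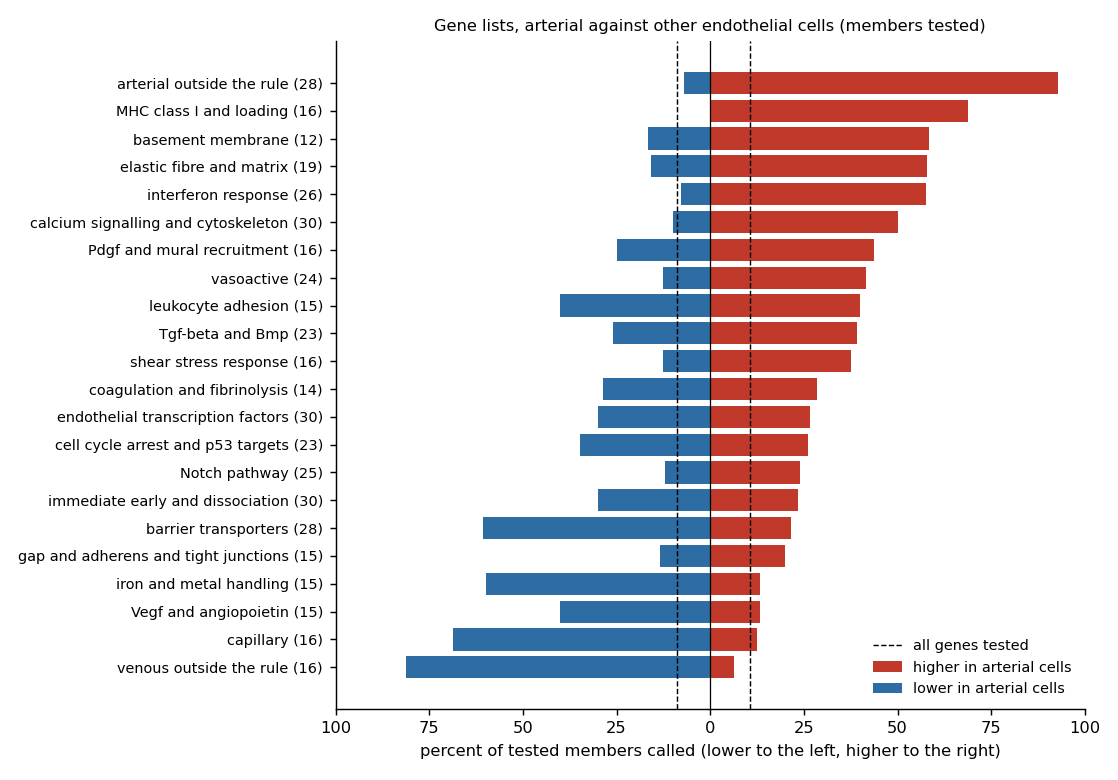
Percent of tested members of each gene list that were higher (red, to the right) or lower (blue, to the left) in arterial than in other endothelial cells, with the number tested in brackets. Dashed lines give the same percents over all genes tested, 10.7% higher and 8.96% lower. The arterial, class I, basement membrane, matrix and interferon lists extend furthest to the right and the venous, capillary, barrier and metal lists furthest to the left.

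Outside the lists, 5 secreted or membrane genes were among the 12 highest differences from the other endothelial cells. Igfbp3, which binds insulin-like growth factors, stood at 136, 113 and 64.8 CPM against 2.39, 4.55 and 0.537 CPM, a log2 difference of 5.74 (SE 0.18, adjusted p = 3.1e-10). Its relative Igfbp4 stood at 56.1, 12.6 and 33.3 CPM against 1.77, 2.65 and 1.07 CPM, a log2 difference of 4.69 (SE 0.25, adjusted p = 3.0e-08), with replicate 2 lowest. Nov (Ccn3), a matricellular protein, stood at 58.8, 79.3 and 53.6 CPM against 4.54, 0.379 and 0.537 CPM, a log2 difference of 4.49 (SE 0.30, adjusted p = 2.7e-07), and 6.85 without replicate 1. In these 3 genes arterial cells were higher in every library. Stc1, a glycoprotein hormone, stood at 64.3, 44.8 and 9.52 CPM against 3.16, 1.52 and 0.806 CPM, a log2 difference of 4.31 (SE 0.18, adjusted p = 3.2e-09), with a low arterial level in replicate 3. Gper1, a membrane oestrogen receptor, stood at 54.6, 35.3 and 75.9 CPM against 2.08, 9.47 and 3.22 CPM, a log2 difference of 4.12 (SE 0.29, adjusted p = 3.6e-07).

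Among the lowest, Flrt2, an adhesion protein that binds latrophilins, stood at 3.25, 2.36 and 2.86 CPM in arterial and 51.1, 35.2 and 42.9 CPM in other endothelial cells, a log2 difference of -3.93 (SE 0.15, adjusted p = 1.8e-09). Its binding partner gene Adgrl3 stood at 3.39, 1.57 and 3.33 CPM against 20.6, 14.02 and 25.5 CPM, a log2 difference of -2.75 (SE 0.18, adjusted p = 2.6e-07). Car14, a carbonic anhydrase as Car4 is, stood at 6.77, 7.07 and 6.19 CPM against 52.7, 36.8 and 44.3 CPM, a log2 difference of -2.84 (SE 0.14, adjusted p = 1.2e-08). All 3 genes were lower in arterial cells in every library. Fam13a and Tcea3 had log2 differences of -3.25 (SE 0.17, adjusted p = 3.0e-08) and -2.80 (SE 0.22, adjusted p = 1.4e-06). Hk2, a hexokinase, was lower by -2.69 (SE 0.31, adjusted p = 3.8e-05) on the log2 scale, and its level in the other cells was 2.16, 85.3 and 7.79 CPM, so replicate 2 carried most of it (-1.75 without replicate 2). Tmem119, a microglia marker, was also among the 12 lowest, at 0.677, 7.85 and 3.57 CPM against 7.24, 56.8 and 18.8 CPM.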

How the data were processed

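The deposited matrices hold raw counts of UMIs per gene and barcode for 3 libraries of single cells, made by the authors with Cell Ranger (version not given in the sources used here) on mm10, per the submitters' processing notes. Of 31053 gene symbols, 2405 had an altered spelling (a lost hyphen or an X added before a digit) that was restored. In all, 30457 were found in GENCODE M21. Membership, levels and shares were computed in Python 3.11.15 with scanpy 1.11.5 and Scrublet (expected rate 0.06); doublets marked by it were kept and removed only in an alternative. UMIs were summed per library and class (at least 5 cells) and tested with edgeR 4.0.16 in R 4.3.3 (TMM scaling, filterByExpr, library as block), with DESeq2 1.42.0 as an alternative. The library pairs the profiles, since both come from the same library. Their deviations from the class means correlated within libraries at r = 0.63, 0.53 and 0.66 against the other endothelial cells and 0.62, 0.46 and 0.62 against the venous cells, across genes. Scripts were tested on simulated data. CPM are counts per 1000000 UMIs of the class.

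The text names list members and, per comparison, genes from the 12 highest and 12 lowest log2 differences among called genes whose libraries share 1 sign and that reach 20 CPM in a group, leaving out the 23 genes of the rule and predicted genes. Members, lists and tests were chosen with earlier results of these data known. Alternatives changed the mitochondrial limit, membership, depth, doublets, scaling, filter, tool, block and libraries. Removal of cells with microglia markers was added after seeing the data. Promoter windows come from RefSeq (GRCm38.p6).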

Additional observations from a re-analysis of the deposited data

How the results depend on the processing

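The numbers of genes higher and lower against other endothelial cells (1212 and 1014) became 640 and 415 with DESeq2, 734 and 504 with cells of interquartile depth, and 452 and 300 after thinning to 2000 UMIs. They ranged from 789 to 1643 and from 533 to 1204 with 1 library left out. Against venous cells (1217 and 901) they became 562 and 354, 698 and 498, and 309 and 196, and ranged from 731 to 1278 and from 512 to 989 with 1 library left out. Of the 1212 and 1014 calls, 628 and 411 were shared with DESeq2. Thinning also applied the rule again, which left 450, 52 and 302 arterial cells and moved the others out of the class, so depth and groups changed at once. Elsewhere the cause was not tested. In the fit with no replicate block, which ignores that the classes are paired by library, 262 and 131 genes were called against other endothelial cells and 333 and 209 against venous cells, and 58 and 46 calls of genes named in the text were lost.

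The share of arterial cells, 30.3%, was 21.8% when at least 3 arterial genes were required, 22.7% with Stmn2 dropped from the rule, 18.4% after thinning and 34.9% at interquartile depth. Of the called genes named in the text, Tagln alone changed sign in any alternative run, to -0.25 at interquartile depth and to -0.013 with smooth muscle cells removed. Beside genes named above as lost, thinning lost the calls of Ephb4, Flt4, Lama5, Mcam, Notch1, Smad3, Tgfbr2 and Vcam1 against other endothelial cells, and interquartile depth those of Ephb4, Flt4, Id1 and Id3. Without replicate 3 the calls of Ephb4 and Flt4 were also lost. DESeq2 lost 10 and 19 calls in the 2 comparisons, among them Cxcl10, Ptgis and Nid1 against venous cells. Called values of named genes moved by over 1.5 times after thinning for 21 genes against other endothelial cells and 10 against venous cells, and at interquartile depth for 6 and 10. Replicate 2, with 97 arterial cells, limits the precision of all comparisons.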

Other observations

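Lists of metal handling, immediate early and cell cycle arrest genes were compared in the same way. Some of their members (Tfrc, Slc40a1, Klf2, Klf4 and Fos) are described above. Of 15 iron and metal genes tested by edgeR's quasi-likelihood test 9 were lower and 2 higher, with a median log2 difference of -0.67 (8 and 1 without replicate 1 and without replicate 3, 7 and 1 with cells holding microglia markers removed), beside 8.96% and 10.7% of all genes tested. The metallothionein gene Mt1, which encodes a zinc- and copper-binding protein, stood at 425, 366 and 421 CPM in arterial and 859.8, 579 and 938 CPM in other endothelial cells of replicates 1, 2 and 3, a log2 difference of -0.95 (SE 0.08, adjusted p = 2.2e-06). Slc39a8, a zinc importer, was lower by a log2 difference of -1.31 (SE 0.08, adjusted p = 7.8e-08). Cp, the ferroxidase ceruloplasmin, was higher at 335, 298 and 259 CPM against 158, 132 and 121 CPM, a log2 difference of 1.13 (SE 0.06, adjusted p = 3.4e-08). The ferritin gene Fth1 stood at 2475, 2063 and 2443 CPM against 2728, 2105 and 2752 CPM and was not called.

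Of the 30 immediate early and dissociation genes 7 were higher and 9 lower (10.7% and 8.96% of all genes tested). The median was -0.03, and without replicate 2 the counts were 13 and 9. The heat shock gene Hspa1b was lower at 5081, 5129 and 3654 CPM against 7122, 6582 and 5306 CPM, a log2 difference of -0.44 (SE 0.06, adjusted p = 7.6e-05), while Nr4a2 was higher at 382, 376 and 304 CPM against 227, 271 and 152 CPM, a log2 difference of 0.78 (SE 0.08, adjusted p = 1.7e-05). Of 23 genes of cell cycle arrest and p53 targets 6 were higher and 8 lower (10.7% and 8.96% of all genes tested). The median was 0.02. Without replicate 1 these counts were 6 and 5, and without replicate 3 they were 6 and 4. Gadd45g, a stress-induced growth arrest gene, was higher at 844, 889.9 and 882 CPM against 395, 448 and 299 CPM, a log2 difference of 1.24 (SE 0.09, adjusted p = 6.0e-07). The cell cycle inhibitor Cdkn1a stood at 1109.7, 978 and 596 CPM against 1002, 1050.5 and 577 CPM and was not called. Cdkn2a, a marker gene of senescent cells, had 16 UMIs in all arterial and 43 in all other endothelial cells. Pmaip1 (Noxa), a p53 target that promotes apoptosis, was lower at 43.3, 27.5 and 33.3 CPM against 116, 117 and 90.9 CPM, a log2 difference of -1.51 (SE 0.10, adjusted p = 2.3e-07).

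Against venous cells, Lypd1 was among the genes with the highest log2 differences, at 212, 122 and 357 CPM in arterial, 28.6, 12.3 and 49.9 CPM in neither-set and 3.50, 0.975 and 5.17 CPM in venous cells, a log2 difference of 6.05 (SE 0.13, adjusted p = 2.3e-14). Nos2, the inducible nitric oxide synthase, was lower at 1.90, 4.71 and 1.90 CPM against 19.2, 36.1 and 22.2 CPM, a log2 difference of -3.28 (SE 0.23, adjusted p = 2.3e-08). Astrocyte markers were called higher than in venous cells in 7 of 8 cases, Gja1 included (11.5% of all genes tested), but in 3 of 8 without replicate 1 and without replicate 3, and in 2 of 8 with cells holding microglia markers removed. Their part in any result above was not tested.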
